A study of Mus musculus with 2 samples.

Results

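Trp63 encodes p63, a transcription factor of the p53 family. Trp63 and 7 genes known as its targets in stratified epithelia were followed in mouse skin cells sorted for the zinc importer ZIP10. The members are Trp63, Perp, Satb1, Grhl3, Zfp750, Ripk4, Fras1 and Bbox1, chosen by symbol as p63 and targets other than keratin, adhesion and Notch genes. All 8 were among the 23233 genes listed. ZIP10-positive and ZIP10-negative cells came from dissociated ventral skin. The mice were C57BL/6 and 7 days old, with no genetic change or treatment named in either group. Viability dye and antibody staining for ZIP10 defined the sort, while the sample titles name hair follicles as the source of both populations. From each population 1 library of polyadenylated RNA was made, so no difference below has a replicate check and none has a test. The labels name neither the number of animals nor any pooling.

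p63 maintains the proliferative basal layer of stratified epithelia and switches on genes of epidermal commitment. It is made from separate promoters as TA and deltaN forms, of which the deltaN forms prevail in basal keratinocytes. Its direct targets include further transcription and chromatin regulators, signalling kinases and structural proteins, through which the programme is passed on to differentiating layers. The deposited values are 1 per gene symbol, so the forms of p63 cannot be told apart here.

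Promoter sequence is shown for Grhl3, the member with the highest ratio between the libraries, and for Bbox1, whose ratio lay near that of Trp63. Both windows run from 250 bases before to 50 bases after the annotated start, in RefSeq on GRCm38.p6, at chr4:135573583-135573882 on the minus strand for Grhl3 and at chr2:110305676-110305975 on the minus strand for Bbox1. Of the 8 members 3 had a window in the RefSeq promoter table, namely Satb1, Grhl3 and Bbox1. Capitals mark matches to CNNGNNNNNNCNNG, the spaced C and G pairs of the p53-family element, a pattern that reads the same on both strands.
Grhl3: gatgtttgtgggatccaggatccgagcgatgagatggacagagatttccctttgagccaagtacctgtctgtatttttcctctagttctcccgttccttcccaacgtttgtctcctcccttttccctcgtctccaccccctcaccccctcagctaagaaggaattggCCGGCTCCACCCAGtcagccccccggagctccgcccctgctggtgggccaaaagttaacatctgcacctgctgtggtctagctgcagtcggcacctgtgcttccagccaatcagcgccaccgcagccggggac
Bbox1: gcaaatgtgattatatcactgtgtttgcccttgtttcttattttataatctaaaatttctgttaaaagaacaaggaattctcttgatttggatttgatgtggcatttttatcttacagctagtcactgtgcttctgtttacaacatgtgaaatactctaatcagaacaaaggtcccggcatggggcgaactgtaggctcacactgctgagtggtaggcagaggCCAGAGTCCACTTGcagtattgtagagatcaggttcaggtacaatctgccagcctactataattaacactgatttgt
Each of these windows held 1 match. Among the 5 windows of Satb1, 3 held a match. The pattern occurred in 70.2% of 32851 promoter windows of 300 bases, so its presence describes the sequence and marks no binding site. The full p53-family half-site, which is more restrictive, occurred in 8.36% of all windows and in none of the 7 windows of these members. The windows differed in base composition, with 58.3% G and C for Grhl3 and 39.3% for Bbox1, against a median of 52.7% over all windows.

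The deposited unit is RPKM, reads divided by the length of the transcript and the size of the library, so levels can be compared between genes. Depth was estimated from the values at about 2.78e+06 reads in the ZIP10-positive and 2.71e+06 reads in the ZIP10-negative library. Intervals below are exact 95% intervals from the read numbers this implies for each gene, and cover counting error only. The median gene at 1 RPKM or more in both libraries had a ratio of ZIP10-positive over ZIP10-negative cells of 1.97. Globins and other erythrocyte markers summed to 16375 RPKM in ZIP10-positive cells, against 283724 RPKM in ZIP10-negative cells, and their part in this shift was not tested. Each ratio is therefore given as deposited and against the median gene. Slc39a10, the gene of ZIP10, stood at 49.4 RPKM in ZIP10-positive cells, against 11.1 RPKM in ZIP10-negative cells, the direction of the sort. Differences between sorted populations cannot separate fewer cells of a type from less RNA per cell.

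The 8 members did not shift as a block. Perp, Grhl3 and Ripk4 had the highest ratios of ZIP10-positive over ZIP10-negative cells, Trp63 and Bbox1 lay close to the median gene, and Zfp750 and Fras1 lay below it. On the log2(RPKM + 1) scale 5 of 8 members were 2-fold or more higher in ZIP10-positive cells, where 44.1% of 12249 compared genes were so, and 0 were 2-fold or more lower, where 3.55% of genes were so. Against the median gene 1 of 8 was that much higher, beside 14.7% of genes, and 0 were lower, beside 11.4%. Scaled to the genes outside the 50 most abundant, 0 members passed 2-fold in either direction, beside 10.0% of genes higher and 16.8% lower. Without globin genes and the ribosomal RNA precursor Rn45s 0 members were higher and 1, Zfp750, was lower, beside 8.99% of genes higher and 19.2% lower. None of these counts sets the members apart from genes in general. The median log2 ratio was 1.13 over the 8 members and 0.87 over all compared genes. Relative to the median gene these medians were 0.25 and 0.094. Compared genes reached 1 RPKM in at least 1 library. Of the members 6 did so, Grhl3 through the ZIP10-positive library alone, while Satb1 and Fras1 stayed under 1 RPKM in both.

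**Figure D1:**
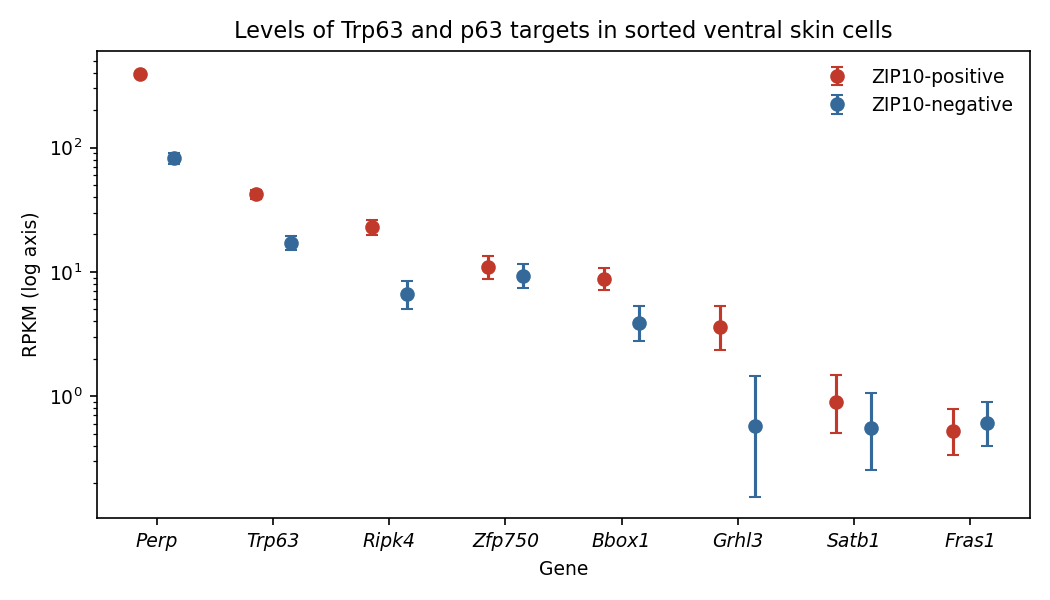
RPKM of the 8 members on a log axis in ZIP10-positive cells (red, left of each pair) and ZIP10-negative cells (blue, right), with 1 library per group. Bars are exact 95% Poisson intervals from estimated reads; Perp is highest in both libraries, at 387 and 81.8 RPKM, and Satb1 and Fras1 lie under 1 RPKM in both.

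Trp63 was abundant in both populations. It stood at 42.2 RPKM in ZIP10-positive cells and 17.1 RPKM in ZIP10-negative cells, on an estimated 605 and 239 reads. Its level was higher than that of 88.4% of detected genes in ZIP10-positive and 86.6% in ZIP10-negative cells, so its place among detected genes was nearly the same in both. The ratio was 2.47, with an interval of 2.12 to 2.88 that lies above the median gene's 1.97. From the fewest whole reads that give this ratio, 296 and 117, the interval would be 1.99 to 3.08. Relative to the median gene Trp63 was 1.25-fold higher, a log2 difference of 0.31 on the scale with a pseudocount of 1. Scaled to the genes outside the 50 most abundant, the log2 difference was 0.011, and without globin genes and Rn45s it was -0.088, so the direction for Trp63 follows the scaling.

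Markers of the cells that carry p63 were also higher as deposited. All 7 basal keratinocyte markers were higher in ZIP10-positive cells, 5 of them at least 2-fold beside 44.1% of all genes, with ratios from 1.12 to 4.59 and a median of 2.44, and the list summed to 2318 RPKM in ZIP10-positive cells, against 783 RPKM in ZIP10-negative cells. Against the median gene 1 of the 7 was 2-fold or more higher and 0 lower, beside 14.7% and 11.4% of genes. A ratio below the median gene was found for 2 of the 7. The list's median log2 ratio was -0.0066 when scaled to the genes outside the 50 most abundant and -0.11 with globin genes and Rn45s left out, so its direction follows the scaling, as that of Trp63 does. Krt14, a basal keratin, had a ratio of 2.44, close to the 2.47 of Trp63, and its partner Krt5 had a ratio of 4.59. None of the 7 was at 0 in either library. The part of keratinocyte content in the values of Trp63 and its targets was not tested.

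Among the transcription and chromatin regulators of the group, Grhl3 and Zfp750 had opposite positions. Grhl3, a Grainyhead factor of barrier formation and wound closure, stood at 3.63 RPKM in ZIP10-positive cells, against 0.572 RPKM in ZIP10-negative cells. These values rest on an estimated 26 and 4 reads, and the ratio of 6.34 has an interval of 2.20 to 25.0. Grhl3 exceeded 42.5% of detected genes in ZIP10-positive but only 16.3% in ZIP10-negative cells. This interval lies above equality and the median gene but includes the zero points of both other scalings, at ratios of 2.45 and 2.63. From the fewest whole reads that give the ratio, 13 and 2, the interval would be 1.44 to 57.9 and would include the median gene as well.

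Zfp750, a zinc finger factor that drives terminal differentiation of keratinocytes, stood at 10.9 RPKM in ZIP10-positive cells, against 9.33 RPKM in ZIP10-negative cells. The ratio of 1.17, on 92 and 77 estimated reads, has an interval of 0.852 to 1.60, which includes equality and lies below the median gene. Relative to the median gene Zfp750 was lower in ZIP10-positive cells, by a log2 value of -0.69. It exceeded 66.5% of detected genes in ZIP10-positive and 76.9% in ZIP10-negative cells. Zfp750 was thus the second most abundant regulator after Trp63 in both libraries, and the gap between them was wider in ZIP10-positive cells.

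Satb1, a chromatin organiser of epidermal progenitors that is also abundant in T lineage cells, was low in both populations, at 0.903 RPKM in ZIP10-positive cells, against 0.555 RPKM in ZIP10-negative cells. An estimated 15 and 9 reads gave a ratio of 1.63 with an interval of 0.667 to 4.21. A difference in Satb1 was therefore not detectable at this depth. Relative to the median gene Satb1 had a log2 ratio of -0.12. Of the T cell markers 9 of 9 were lower in ZIP10-positive cells as deposited, 7 of them by 2-fold or more, beside 3.55% of all genes. They summed to 135 RPKM in ZIP10-positive cells, against 756 RPKM in ZIP10-negative cells. Cd4 was listed at 0 in ZIP10-positive cells. The part of T cells in the Satb1 value was not tested.

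The kinase and the membrane protein of the group stood apart from the median gene. Ripk4, a receptor-interacting serine/threonine kinase needed for epidermal stratification, stood at 22.8 RPKM in ZIP10-positive cells, against 6.60 RPKM in ZIP10-negative cells. Its ratio of 3.45, on 212 and 60 estimated reads, has an interval of 2.58 to 4.67. Perp, a tetraspan protein of desmosomes and an apoptosis effector of p53, had the highest level of the group in both populations, at 387 RPKM in ZIP10-positive cells, against 81.8 RPKM in ZIP10-negative cells. Its ratio of 4.73, on about 1884 and 389 reads, has an interval of 4.23 to 5.28. Relative to the median gene Perp was 2.40-fold and Ripk4 1.75-fold higher. The interval for Perp lay above the zero point of every scaling tried, and that for Ripk4 above each except the one without globin genes and Rn45s, which sets equality at a ratio of 2.63. From the fewest whole reads, 417 and 86 for Perp, the interval would be 3.74 to 6.04 and still lie above each zero point. For Ripk4 the fewest reads, 53 and 15, would give 1.91 to 6.58, which includes the median gene. Perp made up 81.2% of the summed RPKM of the 8 members in ZIP10-positive and 67.9% in ZIP10-negative cells.

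Fras1 and Bbox1 differed from each other. Fras1, an extracellular matrix protein of the epidermal basement membrane whose loss in people causes Fraser syndrome, stood at 0.528 RPKM in ZIP10-positive cells, against 0.612 RPKM in ZIP10-negative cells. It was the 1 member lower in ZIP10-positive cells as deposited, with a ratio of 0.863 on 23 and 26 reads. The interval of 0.470 to 1.57 includes equality and lies below the median gene. Bbox1, the gamma-butyrobetaine hydroxylase that completes carnitine synthesis, stood at 8.83 RPKM in ZIP10-positive cells, against 3.88 RPKM in ZIP10-negative cells. Its ratio was 2.28, with an interval of 1.55 to 3.40 on an estimated 91 and 39 reads that includes the median gene. The fewest whole reads that give this ratio are 7 and 3. If these were the true numbers the interval would be 0.520 to 13.6 and would include equality.

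**Figure D2:**
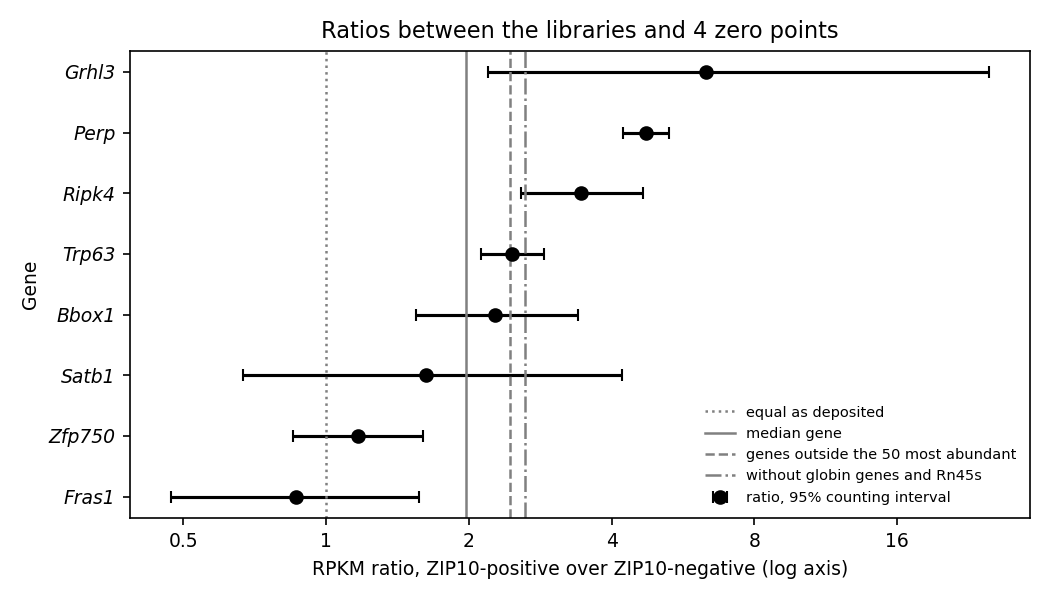
Ratio of RPKM in ZIP10-positive over ZIP10-negative cells for each member on a log axis, with exact 95% counting intervals from estimated reads and 1 library per group; vertical lines are the ratios taken as equality under 4 scalings, from 1 as deposited to 2.63 without globin genes and Rn45s. The interval of Perp lies above all 4 lines, and those of Zfp750 and Fras1 include 1 and lie below the other 3.

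Levels of the members spanned 733-fold in ZIP10-positive and 147-fold in ZIP10-negative cells. In ZIP10-positive cells the order was Perp, Trp63, Ripk4, Zfp750, Bbox1, Grhl3, Satb1 and Fras1. Zfp750 and Bbox1 overlapped in their intervals there, at 8.76 to 13.3 RPKM and 7.11 to 10.8 RPKM, as did Satb1 and Fras1. In ZIP10-negative cells the order was Perp, Trp63, Zfp750, Ripk4, Bbox1, Fras1, Grhl3 and Satb1. Zfp750 and Ripk4 overlapped there, at 7.36 to 11.7 RPKM and 5.04 to 8.50 RPKM. Ripk4 also overlapped Bbox1, at 2.76 to 5.30 RPKM, and the intervals of the lowest members, Fras1, Grhl3 and Satb1, all overlapped.

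Dividing each target by Trp63 of the same library gives a value that no scaling of the libraries can change. Perp amounted to 9.17 times the Trp63 level in ZIP10-positive and 4.79 times in ZIP10-negative cells, a quotient of 1.92 with an exact interval of 1.58 to 2.31. Zfp750 amounted to 0.258 and 0.546 times the Trp63 level in ZIP10-positive and ZIP10-negative cells, a quotient of 0.472 with an interval of 0.332 to 0.672. Fras1 amounted to 0.0125 times the Trp63 level in ZIP10-positive and 0.0358 times in ZIP10-negative cells, a quotient of 0.350 with an interval of 0.187 to 0.652. Per unit of Trp63, Perp was thus higher and Zfp750 and Fras1 were lower in ZIP10-positive cells beyond counting error.

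Ripk4 had a quotient of 1.40, whose interval of 1.001 to 1.96 nearly reached equality. For Grhl3 the quotient was 2.57 with an interval of 0.877 to 10.2, for Bbox1 it was 0.922 with 0.607 to 1.42, and for Satb1 it was 0.659 with 0.266 to 1.73. These intervals include equality, which does not show that the 3 genes followed Trp63. Of the 7 targets, 3 had a ratio above and 4 a ratio below that of Trp63.

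**Figure D3:**
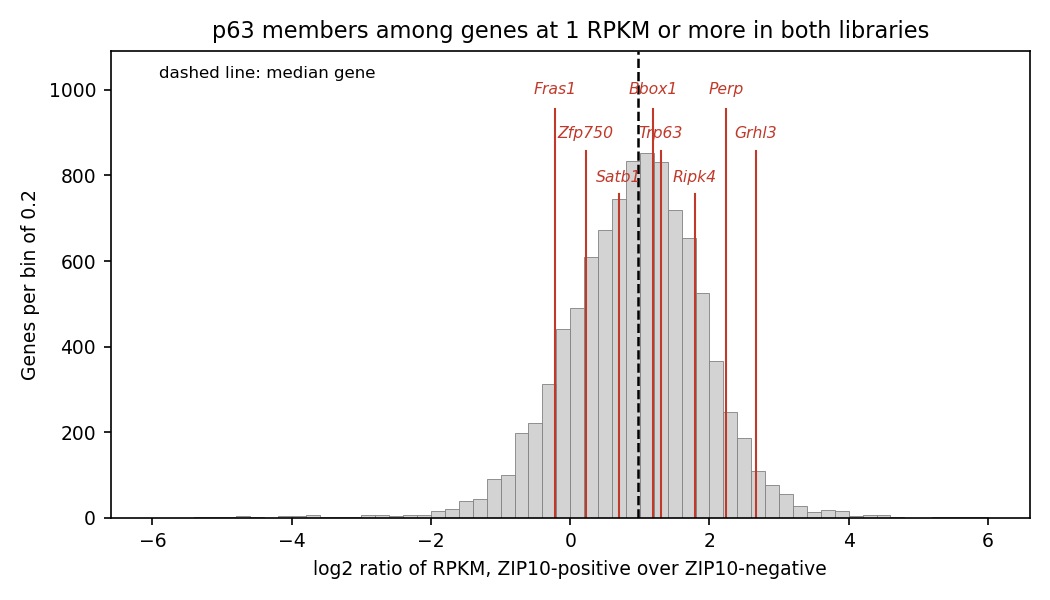
Histogram of the log2 ratio of RPKM, ZIP10-positive over ZIP10-negative, without a pseudocount, for 9620 genes at 1 RPKM or more in both libraries (values beyond the axis are placed at its ends); red lines mark the 8 members, of which Grhl3, Satb1 and Fras1 are not among the genes counted in the bars. Trp63 at 1.30 and Bbox1 at 1.19 lie next to the dashed median gene at 0.98, and Perp at 2.24 and Grhl3 at 2.66 lie to the right of it.

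The genes nearest to Trp63 in level over the 2 libraries were Fam96a at 42.5 RPKM in ZIP10-positive cells, against 16.8 RPKM in ZIP10-negative cells, Rai12 at 41.9 and 16.7 RPKM, and Copb2 at 42.9 and 17.4 RPKM in the same order. Their distances from Trp63, measured on log2(RPKM + 1) in both libraries, were 0.022, 0.031 and 0.032. Within a distance of 0.1 there were 32 genes, so a likeness over 2 libraries sets few genes apart.

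Other genes of the p63 network gave a wide range. Of 48 genes in 4 lists, all measured, 17 were higher and 1 lower in ZIP10-positive cells by 2-fold or more, beside the 44.1% and 3.55% of all genes. Set against the median gene, 2 were higher by that much and 5 lower, beside 14.7% and 11.4% of genes. The median log2 ratio was 0.72, against 0.87 over all compared genes, and 45 passed the filter of 1 RPKM. Without a pseudocount, 23 of the 47 genes above 0 in both libraries had a ratio above and 24 a ratio below the median gene.

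Members of the p53 family and modifiers of p63 numbered 8, of which 2 were higher and 0 lower by 2-fold or more, beside 44.1% and 3.55% of all genes. When set against the median gene, 0 were higher and 1 lower, beside 14.7% and 11.4% of genes. Both other scalings gave the same counts. All genes stood at 10.0% and 16.8% outside the 50 most abundant, and at 8.99% and 19.2% without globin genes and Rn45s. Trp53, the gene of p53, stood at 87.8 RPKM in ZIP10-positive cells, against 66.9 RPKM in ZIP10-negative cells, a ratio of 1.31 that lies below the median gene. Trp73 was low in both, at 0.590 and 0.259 RPKM in ZIP10-positive and ZIP10-negative cells. Trp63 therefore had the higher ratio of the 2 abundant family members. Ppp1r13l, which encodes the p63-binding inhibitor iASPP, stood at 8.22 RPKM in ZIP10-positive cells, against 12.6 RPKM in ZIP10-negative cells. Itch, a ubiquitin ligase for p63, stood at 6.27 RPKM in ZIP10-positive cells, against 3.18 RPKM in ZIP10-negative cells.

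Transcription and chromatin regulators known as p63 targets had 2 of 11 at least 2-fold higher and 0 lower, with a median log2 ratio of 0.43, beside 44.1% and 3.55% of all genes. Against the median gene 0 passed 2-fold in either direction, beside 14.7% of genes higher and 11.4% lower. Under each of the other scalings 0 were higher and 1 lower, beside 8.99% to 10.0% and 16.8% to 19.2% of genes. Dlx3, a homeobox factor of epidermis and hair, stood at 84.2 RPKM in ZIP10-positive cells, against 73.0 RPKM in ZIP10-negative cells. Gata3, a zinc finger factor of follicle and epidermis that is also a T cell factor, stood at 27.5 RPKM in ZIP10-positive cells, against 11.6 RPKM in ZIP10-negative cells. Tfap2c, an AP-2 factor, stood at 18.5 RPKM in ZIP10-positive cells, against 11.4 RPKM in ZIP10-negative cells. Of the 10 regulators above 0 in both libraries, 7 had a ratio below the median gene, and Dlx5 was listed at 0 in both. By definition as many genes lie below the median gene as above it, so this count does not set the regulators apart.

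Of 9 signalling and cell cycle targets 4 were at least 2-fold higher and 1 was lower, a share higher close to the 44.1% of all genes, of which 3.55% were lower. Against the median gene 1 was higher and 2 lower, beside 14.7% and 11.4% of genes. Outside the 50 most abundant the counts were 0 and 2, beside 10.0% and 16.8%. With globin genes and Rn45s left out they were 0 and 3, beside 8.99% and 19.2%. Sfn, the cell cycle inhibitor 14-3-3 sigma, stood at 248.8 RPKM in ZIP10-positive cells, against 62.4 RPKM in ZIP10-negative cells, a log2 ratio of 1.98 and 1.01 relative to the median gene. Cdkn1a, the cyclin-dependent kinase inhibitor p21, stood at 60.6 RPKM in ZIP10-positive cells, against 19.3 RPKM in ZIP10-negative cells. Egfr, the receptor of epidermal growth factor, was the gene that was 2-fold lower, at 4.41 RPKM in ZIP10-positive cells, against 12.0 RPKM in ZIP10-negative cells, a log2 ratio of -1.27. Igfbp3 stood at 37.3 and 30.5 RPKM and Fgfr2 at 18.7 and 20.2 RPKM in ZIP10-positive and ZIP10-negative cells.

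Keratin, adhesion and Notch targets had 9 of 20 at least 2-fold higher and 0 lower, with a median log2 ratio of 0.92, a share higher close to the 44.1% of all genes. Against the median gene 1 was higher and 2 lower, beside 14.7% and 11.4% of genes. Outside the 50 most abundant the counts were 0 and 2, beside 10.0% and 16.8%. With globin genes and Rn45s left out they were 0 and 3, beside 8.99% and 19.2%. Krt5 stood at 1021 RPKM in ZIP10-positive cells, against 222 RPKM in ZIP10-negative cells, with a log2 ratio of 2.19 near the 2.23 of Perp. Cldn1, the tight junction protein claudin-1, stood at 29.4 RPKM in ZIP10-positive cells, against 9.58 RPKM in ZIP10-negative cells. The integrin subunit gene Itga3 had the lowest log2 ratio of this list, at -0.64.

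**Figure D4:**
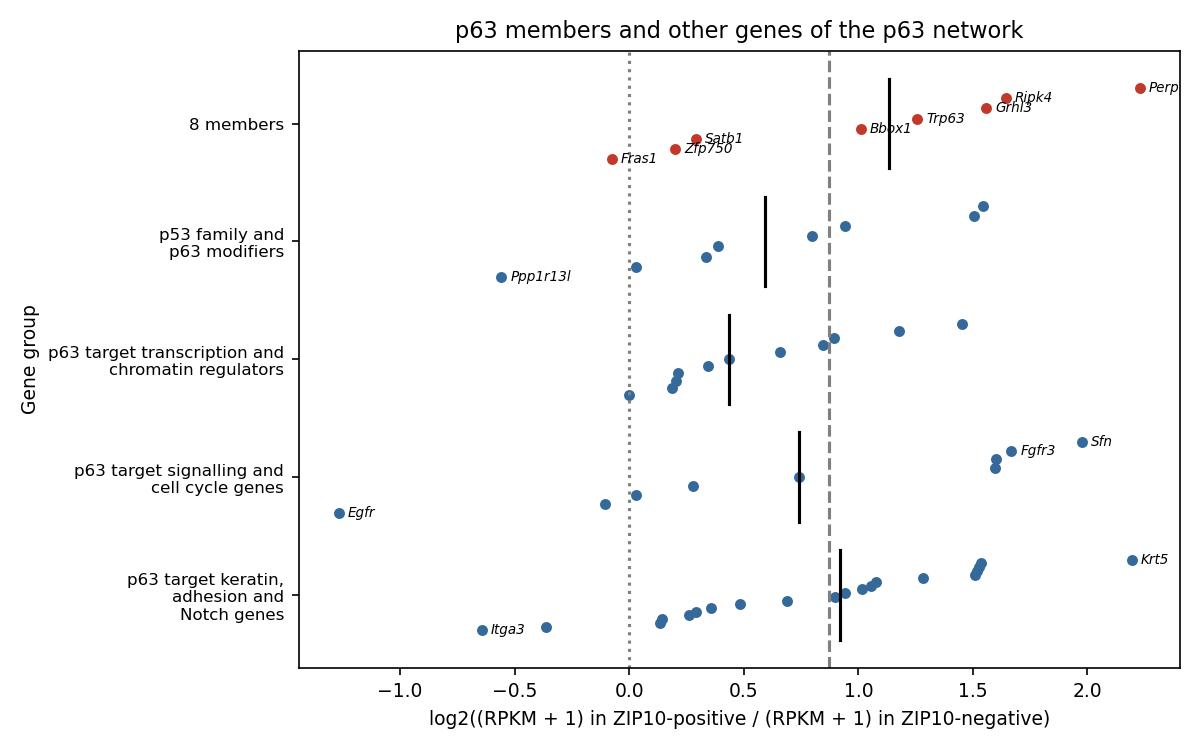
Log2 ratio of RPKM + 1, ZIP10-positive over ZIP10-negative, for the 8 members (red) and 48 other genes of the p63 network in 4 lists (blue), each dot 1 gene and each black bar the median of its group. The dotted line is equality and the dashed line the median of all compared genes, 0.87; Perp at 2.23 and Krt5 at 2.19 lie farthest right and Egfr at -1.27 farthest left.

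Partners and relatives of the members did not all share the members' ratios. Of the 5 Zfp750 cofactors 2 passed 2-fold upward and 0 downward as deposited, where 44.1% and 3.55% of all genes did. Other scalings left 0 of them higher, where 8.99% to 14.7% of genes were. Dropping globins and Rn45s made 1 cofactor 2-fold lower, where 19.2% of genes were. Counts this small do not set the cofactors apart. Among the 2 higher as deposited was Ctbp1, a corepressor, at 57.5 RPKM in ZIP10-positive cells, against 23.7 RPKM in ZIP10-negative cells. Klf4, a differentiation factor that acts with Zfp750, had a log2 ratio of 0.34, beside 0.20 for Zfp750. Grhl1 and Grhl2, the relatives of Grhl3, stood at 3.98 and 3.86 RPKM in ZIP10-positive cells and at 5.08 and 1.86 RPKM in ZIP10-negative cells. Grhl3, at 3.63 RPKM, was close to both of them in ZIP10-positive cells, and at 0.572 RPKM it was below both in ZIP10-negative cells.

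Frem1, which forms an extracellular complex with Fras1, stood at 3.98 RPKM in ZIP10-positive cells, against 5.13 RPKM in ZIP10-negative cells. Like Fras1 it had a ratio under 1, at 0.775, with an interval of 0.595 to 1.01. Frem2, the third protein of the complex, had a ratio of 3.06 in place of one under 1, at 1.39 and 0.455 RPKM in ZIP10-positive and ZIP10-negative cells. Its interval of 1.68 to 5.89, on an estimated 47 and 15 reads, lies above equality but includes the median gene. Frem2 reached 1 RPKM in ZIP10-positive cells alone. Grip1, which carries Fras1 to the membrane, was listed at 0 in both.

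Ripk3, a relative of Ripk4 in necroptosis, stood at 7.13 RPKM in ZIP10-positive cells, against 2.21 RPKM in ZIP10-negative cells. Ripk2, a kinase of innate immune signalling, had the largest ratio of these relatives, 12.7, at 2.75 RPKM in ZIP10-positive cells and 0.217 RPKM in ZIP10-negative cells. That ratio rests on an estimated 19 reads in ZIP10-positive cells and 1 read in ZIP10-negative cells, with an interval of 2.95 to 770.1. Ripk1 stood at 1.004 RPKM in ZIP10-positive cells, against 1.29 RPKM in ZIP10-negative cells. Macrophage markers, which mark cells that also use these kinases, summed to 1138 RPKM in ZIP10-positive cells, against 49.3 RPKM in ZIP10-negative cells. As deposited 8 of 8 were at least 2-fold higher, where 44.1% of all genes were. In ZIP10-negative cells 4 were listed at 0, and Csf1r at 0.301 and Emr1 at 0.363 RPKM were also under 1 RPKM. These markers passed the filter through ZIP10-positive cells alone. Each other scaling kept 7 of the 8 higher, where 8.99% to 14.7% of genes were. The exception was Cd68, with a ratio of 2.85. The part of macrophages in the values of the Ripk4 relatives was not tested. All 3 genes of carnitine synthesis and uptake were higher in ZIP10-positive cells, 2 of them at least 2-fold beside 44.1% of all genes, but 0 of 3 passed 2-fold under any other scaling. The less abundant of these 2 stood at 2.65 RPKM in ZIP10-positive cells, against 0.538 RPKM in ZIP10-negative cells. It passed the filter of 1 RPKM through ZIP10-positive cells alone. Slc22a5, a carnitine transporter, turned lower outside the 50 most abundant, at -0.16, and without globin genes and Rn45s, at -0.24. Aldh9a1, an enzyme upstream of Bbox1, stood at 30.2 RPKM in ZIP10-positive cells, against 11.3 RPKM in ZIP10-negative cells.

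Markers of differentiated and dermal cells give the remaining setting of the members. Of 7 measured suprabasal keratinocyte markers 2 were higher and 2 lower by 2-fold or more as deposited, beside 44.1% and 3.55% of all genes. With the median gene as zero point, 0 were higher and 2 lower, beside 14.7% and 11.4% of genes. Under each of the other scalings 0 were higher and 3 lower, beside 8.99% to 10.0% and 16.8% to 19.2% of genes. The list summed to 245 RPKM in ZIP10-positive cells, against 144 RPKM in ZIP10-negative cells. Most of the ZIP10-positive sum was Dmkn, at 168 RPKM, against 50.7 RPKM in ZIP10-negative cells. By gene 4 of the 7 were higher and 3 lower in ZIP10-positive cells, so the sum does not speak for the list. Log2 ratios of the list ran from -1.42 to 1.71. The highest was that of Dmkn, a secreted protein of these layers, and Krtdap had one of -1.10. Fibroblast markers summed to 1009 RPKM in ZIP10-positive cells, against 922 RPKM in ZIP10-negative cells. As deposited 2 of 7 were higher and 0 lower by 2-fold or more, beside 44.1% and 3.55% of all genes. Set against the median gene, 1 was higher and 1 lower, beside 14.7% and 11.4% of genes, with a median log2 ratio of -0.83. Under each of the other scalings 0 were higher and 4 lower. All genes stood there at 10.0% and 16.8% outside the 50 most abundant, and at 8.99% and 19.2% without globin genes and Rn45s. Mast cell markers summed to 299 RPKM in ZIP10-positive cells, against 14.3 RPKM in ZIP10-negative cells. Of these 5 genes 4 were at least 2-fold higher under every scaling, beside 44.1% of all genes as deposited and 8.99% to 14.7% otherwise. The remaining 1 had a ratio below the median gene. Melanocyte markers summed to 149 and 115 RPKM in the same order. As deposited 2 of these 4 genes were higher and 2 lower, and 0 passed 2-fold, beside 44.1% and 3.55% of all genes. All 4 had a ratio below the median gene. Smooth muscle and pericyte markers summed to 65.4 RPKM in ZIP10-positive cells, against 34.2 RPKM in ZIP10-negative cells. Of these 4 genes 3 were higher and 1 lower, with 1 at least 2-fold higher, beside 44.1% of all genes. Endothelial markers summed to 4.04 and 1.54 RPKM in the same order, with 3 of 4 higher and 1 lower. Only 1 of the 4 endothelial markers passed the filter of 1 RPKM. Each population thus held RNA of several cell types beside keratinocytes, and the part of this mixture in the members' ratios was not tested.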

How the data were processed

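The authors deposited RPKM values for each gene symbol in each library, a unit given by the table's name. Per the submitters' processing notes, the tools were cutadapt, TopHat and Cufflinks and the build was mm9. Versions, annotation and strand setting are not given in those notes. Values were compared as log2((positive + 1)/(negative + 1)), a pseudocount that understates changes of low genes, and counted as apart from 2-fold. Genes with 1 RPKM or more in a library were compared; listed genes are counted whether or not they passed. The median gene is the median log2 ratio, 0.98, of 9620 genes at 1 RPKM or more in both libraries, divided between the libraries.

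Depth came from 1389 genes at 1 RPKM or less: 64.6% had ratios of whole numbers up to 20 times 0.975, at a tolerance of 0.0012%. Absolute depth is the most frequent value over 408 genes with 1 transcript in GENCODE vM21, of which 19.9% lay within 1% of it, with an assumed offset of 199 bases. Reads of a gene use its longest coding transcript, set to the nearest multiple of the fewest whole reads where that pair was within 5% and under 0.1 such pairs were expected by chance. Intervals are exact binomial for ratios, exact Poisson for levels and exact conditional for quotients; reads carry no molecular identifiers. Transcripts from several starts, as for Trp63, Satb1 and Bbox1, make the read numbers approximate. No test or p-value was possible with a single library per group.

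The members, the lists and the rule for named genes (all members, Slc39a10, up to 4 of the most abundant genes of each list, network genes 2-fold lower, and the 3 genes nearest to Trp63) were chosen with earlier results of these data known. Trp73, Dlx5, Itga3, Dsp, Col17a1 and Cd4 are named outside that rule, after their values were seen, and 2 genes under the rule are not reported here. Coordinates of promoters are from RefSeq on GRCm38.p6, another build than the authors' mm9. The depth estimates, the median gene and the calls of 2-fold change were tested on simulated reads. These used the transcript lengths and offset that the estimates assume, changed only abundant genes and held no shift of the median gene. The intervals were not tested in this way. Python 3.11.15, pandas 2.3.3, numpy 2.4.6, scipy 1.17.1 and matplotlib 3.10.9 were used.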

Additional observations from a re-analysis of the deposited data

How the results depend on the processing

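Alternatives were fixed with the lists. No paired analysis was possible because each group has 1 library, and no replicate could be left out. Of the 8 members 5 were at least 2-fold higher as deposited; 3 were so with a pseudocount of 5, 1 relative to the median gene, and 0 with scaling outside the 50 most abundant genes or without globin genes and Rn45s; 1 was then lower in the last of these. The members' median log2 ratio of 1.13 was 0.63, 0.25, -0.039 and -0.13 in the same order, 1.26 over the 5 members at 5 RPKM or more, and 1.23 with a pseudocount of 0.1. Of the 48 other network genes, 17 higher and 1 lower as deposited, 10 and 0 were so with a pseudocount of 5, 2 and 5 relative to the median gene, 0 and 6 outside the 50 most abundant, and 0 and 8 with globin genes and Rn45s left out. Over all compared genes 5405 higher and 435 lower became 2782 and 104 with a pseudocount of 5, 1799 and 1398 relative to the median gene, 1230 and 2060 outside the 50 most abundant, and 1101 and 2352 with globin genes and Rn45s left out; 679 were lower with a pseudocount of 0.1 and 168 with a filter of 5 RPKM. Network, partner and marker genes and members at least 2-fold higher as deposited that turned lower with scaling outside the 50 most abundant and, given second, with globin genes and Rn45s left out, were Bbox1 at -0.090 and -0.18, Gata3 at -0.043 and -0.14, Krt14 at -0.0066 and -0.11, Ctbp1 at -0.016 and -0.12, Dsp at -0.12 and -0.22 and Krt15 at -0.21 and -0.31; Trp63 and Col17a1 turned only in the second, to -0.088 and -0.083. The zero points of these scalings were log2 ratios of 1.29 and 1.39. Depth limits Grhl3, Satb1 and Fras1 most, with 4 to 26 estimated reads each.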
